A study of Drosophila melanogaster with 16 samples.

Results

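The 14th day arrays of a PTZ time course in fly heads are described here, 4 of the 16 arrays of the series. They were chosen by their titles, which give the 14th day and replicates 1 to 4, and not by any measured value. Flies were virgin Drosophila melanogaster females of the Oregon-R strain, 3 to 4 days old at the start. Treated flies ate food with pentylenetetrazole (PTZ) at 8 mg/ml for 7 days and normal food (NF) for the next 7 days, in vials of 30 flies. Control flies ate NF for all of that time. By their titles, the other arrays held flies still on PTZ, after 12 hrs, 2 days (2nd day) or 7 days (7th day). Each time had 4 arrays, with flies kept on NF as controls. The treatment field of 7th day replicate 4 speaks of withdrawal instead, and its title was followed. Heads were pooled, and by the labels every replicate came from its own vials. Whole heads were used, so fewer cells of a type and less RNA per cell cannot be told apart. No mutant or transgene was involved.

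PTZ is a proconvulsant that blocks chloride currents through GABA-A receptors and is widely used to provoke or kindle seizures in rodents. A time after withdrawal shows which expression differences last once the drug is gone. In the fly head, the fat body around the brain stores lipid and secretes yolk and carrier proteins, and its genes follow feeding state closely. Neurons, glia and photoreceptors supply much of the remaining RNA.

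Each 2-colour cDNA array compared a PTZ-treated pool directly with an NF pool. Every value below is a log2 ratio of PTZ-treated over NF, after each array was centred on its median, so that 0 is the middle gene of that array and a change common to most genes would not show. PTZ carried Cy5 in replicates 1 and 2 and Cy3 in replicates 3 and 4. Values were held by 21970, 10171, 18639 and 11633 of 27648 spots in replicates 1 to 4, and duplicate spots had Spearman correlations of 0.551, 0.475, 0.709 and 0.715. Of 13059 features, which are single named genes or unnamed pairs of neighbouring spots, 10897 had a value on a 14th day array and 6464 had one on at least 3. Of these 6464, which were tested, 3561 carried the name of 1 gene. Replicates 2 and 4 supplied the gaps, with 1674 and 1130 of the tested features lacking a value there. Defining cell type markers, a short set apart from the gene lists below, were covered thinly, with 1 of 6 neuronal, 3 of 7 photoreceptor, 2 of 5 glial and 5 of 8 fat body markers tested. Of the defining markers of ovary and testis, 0 of 6 and 0 of 3 could be tested.

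One week after withdrawal, no gene passed the test against NF. limma called 0 of 6464 features at an adjusted p under 0.19, which is 0%, and the smallest adjusted p was 1.00. SAM, run over all 16 sign changes of the arrays, also called 0. On simulated arrays with these gaps and spreads, 100 features were changed by 0.5 log2 units and, together with them, 100 by 1 log2 unit. limma recovered 10% and 69% of them. The 0 calls thus do not show that no gene differed. The simulated noise was independent between features, while the real arrays were correlated across features. Fewer changed features would also make a call by adjusted p harder. The 69% is therefore not the chance that a real change of 1 log2 unit would be called here. An unadjusted p under 0.05 was reached by 138 features, which is 2.13%. With no effect, p-values spread evenly from 0 to 1 would give a larger share. Of the 138, 106 were lower, which is 1.64% of all tested, and 32 higher, which is 0.495%. Means went beyond 0.5 log2 units in 109 lower and 50 higher features, while 3203 means lay below 0, which is 49.6%, and 3261 above it, which is 50.4%. Of the features tested, 446 lay below 0 on every array that measured them, which is 6.90%, and 370 above 0, which is 5.72%. An exact sign-change permutation test over 4 arrays, two-sided, cannot go below p = 0.125. As deposited, without centring, the 4 features at an unadjusted p under 0.05 were all higher, and the median of all means was 0.249.

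The 4 arrays shared little across genes. Replicates 2 and 3, of opposite dye orientation, had a Spearman correlation of 0.35, and every other pair lay below 0. Replicates 1 and 2, both with PTZ in Cy5, stood at -0.0551, and replicates 3 and 4, both with PTZ in Cy3, at -0.0376. The lowest pair was replicates 2 and 4 at -0.369, and replicate 1 had -0.265 with replicate 3 and -0.17 with replicate 4. Genes are not independent replicates, and these values are descriptions. The median SD of a feature between arrays was 0.322. It was 0.242 at 12 hrs, 0.176 on day 2 and 0.264 on day 7. A single array decided the count of calls. Without replicate 4, 29 features passed limma, which is 0.449%, with 28 lower and 1 higher. Replicate 4 had a value of the opposite sign in 21 of these 29, a value of the same sign in 2 and no value in 6. The named ones were Cpr50Cb, a cuticle protein gene, at -1.33, CG13244 at -1.20, Karl at -1.0, Uros1 at -0.81 and dhd at 1.23. Karl, Uros1 and dhd had no value in replicate 4, so their own values and means were the same in both fits. CG13244 rested on replicates 1 and 3, at -2.1 and -0.299, and had 0.449 in replicate 4. Leaving out any other replicate left 0 calls.

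Among named genes with 1 sign on every array that measured them, those with the smallest p on the low side mostly lacked replicate 4. Karl, which encodes a lipocalin, had -1.54, -0.92 and -0.55 in replicates 1 to 3, with a mean of -1.0 (SD 0.50, n = 3, limma adjusted p = 1.00). Uros1, of heme synthesis, had -0.80, -0.64 and -0.98 in the same replicates, with a mean of -0.81 (SD 0.17). Karl was lowest in replicate 1 and Uros1 in replicate 3. Vps4, the ATPase that takes apart ESCRT-III filaments, was the tightest of the group at -0.64, -0.60 and -0.67 in replicates 1 to 3 (mean -0.64, SD 0.04). Dbp45A, a DEAD-box RNA helicase, had -0.71, -0.85 and -0.69 there (mean -0.75, SD 0.09). Their arrays differed by little, but limma, which draws on the spread of all genes, gave both an adjusted p = 1.00. eIF3f2, a subunit gene of translation initiation factor 3, was the one of the 10 with a value in replicate 4, at -0.53, -0.98 and -0.81 in replicates 1, 3 and 4 (mean -0.77, SD 0.23). PPO2, a prophenoloxidase of the melanization response, had -0.40, -0.93 and -0.83 in replicates 1 to 3 (mean -0.72, SD 0.28). The other 4 were CG12301, Trs31 of the TRAPP trafficking complex, IntS9 of the Integrator complex and the oligopeptide transporter gene yin, with means of -0.78, -0.71, -0.69 and -0.75. All 10 were chosen as having 1 sign on every array that measured them, so their agreement in sign is fixed by that choice. As deposited, without centring, 8 of the 10 means lay above 0. These 8 lacked replicate 4, and as deposited all features without it had a median of 0.672, above each of the 8 means. The rule of 1 sign passed over Cpr50Cb, which had an unadjusted limma p of 0.00738 and 0.127 in replicate 4. Features without a value in replicate 4 were 1130 of the 6464 tested and had a median of -0.152, against 0.0231 for those with 4 values. They held 59 of the 106 features that were lower at an unadjusted p under 0.05.

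On the high side, 4 of the 10 genes were measured on all 4 arrays. These 10 were chosen by the same rule, so their agreement in sign is again fixed by the choice. Rtnl1, a reticulon that shapes the endoplasmic reticulum, had 0.18, 0.49, 0.45 and 0.60 in replicates 1 to 4, with a mean of 0.43 (SD 0.18, limma adjusted p = 1.00). Hsp26, a small heat shock protein, had 0.68, 0.12, 0.74 and 0.24, with a mean of 0.45 (SD 0.31). yps, a Y-box RNA-binding protein, had 0.42, 0.26, 0.69 and 0.26 (mean 0.41, SD 0.20). Rtnl1 was lowest in replicate 1 and yps was highest in replicate 3, and arrays of opposite dye orientation overlapped in both. Xpd, a helicase of transcription factor TFIIH, had 0.11, 0.25, 0.41 and 0.88 (mean 0.41, SD 0.33). Yp3, a yolk protein made in the female fat body, had 0.51, 0.36 and 0.48 in replicates 1 to 3 (mean 0.45, SD 0.08). Yp2, another yolk protein gene and not among the 10, had 0.43, -0.38 and -0.72 in replicates 1, 3 and 4 (mean -0.22, SD 0.59). dhd, a thioredoxin of the female germline, had the largest mean of the group and the widest spread, at 2.50, 0.12 and 1.06 in replicates 1 to 3 (mean 1.23, SD 1.19, limma adjusted p = 1.00). The mean of dhd is therefore set largely by replicate 1. The others were CG14763 at 0.95, CG3092 at 0.67, CG3823 at 0.52 and Rich, of the Rab6 pathway, at 0.50. CG14763 and CG3092 were set largely by replicate 4, where they had 2.09 and 1.41.

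**Figure D1:**
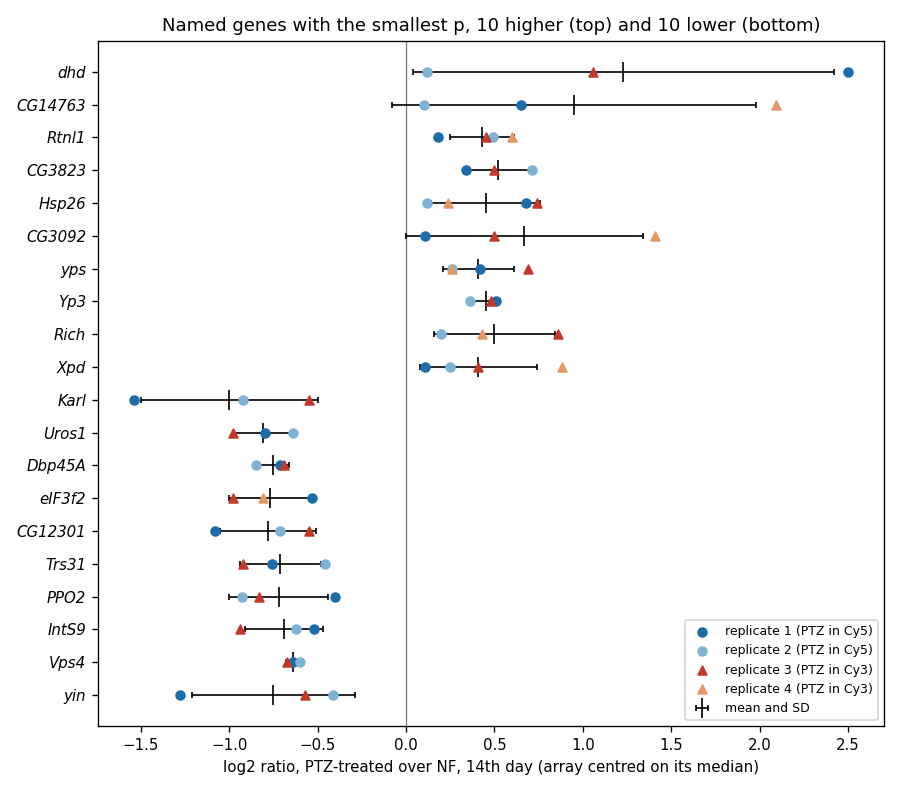
Log2 ratios of PTZ-treated over NF on the 14th day for the named genes with the smallest p and 1 sign on every array. Each point is 1 array, circles with PTZ in Cy5 and triangles with PTZ in Cy3, and black bars give the mean and SD. Of the 10 lower genes, eIF3f2 alone has a point for replicate 4, and dhd spans 0.12 to 2.50.

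Of the genes low on the 2nd day of PTZ, fit and CG3036 passed the test of a difference from that day, and both already lay nearer to 0 on the 7th day, with PTZ still in the food. fit, a gene of the female head fat body, had 0.36, 0.16, 0.20 and 0.95 in replicates 1 to 4 on the 14th day, against -1.13, -1.45, -1.13 and -1.29 on the 2nd day of PTZ. The sets did not overlap. The means were 0.42 (SD 0.37, n = 4) and -1.25 (SD 0.15, n = 4), and their difference of 1.67 (SE 0.19) passed limma with an adjusted p = 0.0478. CG3036 had 0.17, 0.05, 0.35 and 0.23 on the 14th day, against -0.53, -0.66, -0.83 and -0.96 on the 2nd day. These sets did not overlap either, and the difference of 0.95 (SE 0.14) had a limma adjusted p = 0.182. fit and CG3036 were the 2 calls among 3808 features measured at both times, which is 0.0525%, and both were higher on the 14th day. Neither passed against NF on the 14th day itself, where their limma adjusted p was 1.00. Against the 7th day neither passed. fit had -0.61, -0.40 and 0.73 in replicates 1, 3 and 4 there (mean -0.09), and its 14th day mean lay 0.51 higher (SE 0.34, limma adjusted p = 0.694). CG3036 had -0.29, -0.63, 0.30 and -0.51 on the 7th day (mean -0.28), and its 14th day mean lay 0.48 higher (SE 0.22, limma adjusted p = 0.656). The values on the 14th day overlapped with those on the 7th day in both genes. In fit the overlap came through 7th day replicate 4 alone, the array whose treatment field speaks of withdrawal. In CG3036 it came through 7th day replicate 3 alone. With the values as deposited neither difference passed (limma adjusted p = 1.00). The call of CG3036 was lost without any 1 of the 8 arrays. That of fit was lost without 14th day replicate 1 (adjusted p = 0.283) and without 2nd day replicate 2 or 4 (0.260 and 0.265). Both are on the list because earlier results of these data gave them as low on the 2nd day, so the size of that gap is partly fixed by the choice.

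Other genes low on the 2nd day lay nearer to 0 on the 14th day without passing the test of the difference, and they lay nearer to 0 on the 7th day too. On the 14th day CROT, CG5707, CG8654 and apolpp had means of -0.06, 0.01, -0.14 and 0.35, against -0.12, 0.09, -0.27 and -0.28 on the 7th day of PTZ. Their differences between these days were 0.06, -0.08, 0.13 and 0.63, with limma adjusted p = 0.958, 0.957, 0.891 and 0.656. CROT, a carnitine acyltransferase gene of fatty acid oxidation, had -0.17, -0.32, -0.22 and 0.48 on the 14th day, against -1.05, -1.0, -1.08 and -1.21 on the 2nd day. The sets did not overlap, and the difference was 1.03 (SE 0.19, limma adjusted p = 0.483). apolpp, the precursor of the lipophorin apolipoproteins, had 0.58, -0.29, 0.70 and 0.39 on the 14th day, against -0.85, -0.27, -0.83 and -0.95 on the 2nd day. The sets overlapped through 1 array of the 14th day and 1 of the 2nd day, with a difference of 1.07 (SE 0.25, limma adjusted p = 0.737). CG5707 had -0.02, -0.71, 0.00 and 0.77 on the 14th day (mean 0.01, SD 0.61), against a 2nd day mean of -0.78 (SD 0.06), and its wide spread left the sets overlapping. CG8654 had 0.11, 0.15 and -0.68 in replicates 1 to 3 (mean -0.14), against a 2nd day mean of -1.10. Of the 11 features called lower on the 2nd day, which is 0.203% of 5415, 9 were measured on the 14th day. Their median was -0.0579 on the 14th day, with 5 below 0 and 4 above, against -1.08 on the 2nd day. They were chosen as low on the 2nd day, so this gap is partly fixed by the choice. Of all 3808 features, 43.2% lay below 0 on the 14th day. AkhR, the receptor of adipokinetic hormone, had no value on a 14th day array. CG4757 had 2 values, -0.65 and 0.33 in replicates 1 and 3. The lipase gene bmm, whose 2nd day mean was 0.60 (SD 0.23), above 0 on 4 of 4 arrays, had 1 value, -0.23 in replicate 3. Rdl, which encodes a GABA receptor subunit, is not on a row with a gene name. At an unadjusted p under 0.05, 39 of the 3808 features were lower on the 14th day, which is 1.02%, and 90 higher, which is 2.36%. Of all 3808, 99 had every 14th day array above every 2nd day array, which is 2.60%, and 54 had them below, which is 1.42%.

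No gene passed the test of a difference between the 14th day and 12 hrs of PTZ. mRpS34, a mitochondrial ribosomal protein, had 0.12, -0.39, 0.18 and -0.14 on the 14th day, against 1.12, 1.19, 0.57 and 1.35 at 12 hrs. The sets lay apart, with a difference of -1.11 (SE 0.22, limma adjusted p = 1.00). CG14687 had 0.21, 0.46, 0.15 and 0.04, against -0.60, -0.52, -0.49 and -0.43 at 12 hrs, a difference of 0.72 (SE 0.16, adjusted p = 1.00). Both genes thus lay clear of their 12 hrs levels on every array, and neither passed. Both are on the list because of earlier results of these data, so the gap may be partly fixed by that choice. The other genes of this comparison were chosen after their values were seen. GIIIspla2, a secreted phospholipase A2, had a mean of -0.22 on the 14th day and 0.98 at 12 hrs (difference -1.21, SE 0.33, adjusted p = 1.00). At the times between, the 2nd and 7th day means of mRpS34 were -0.65 and -0.90, with 4 of 4 arrays below 0 each time. Those of GIIIspla2 were -0.17 and -0.02, and those of CG14687 were -0.56 and -0.11. CG4073 was at -0.05 and -0.02 on these days, and Obp56e at -0.28 and 0.21. Not all such genes lay near 0 on the 14th day. CG4073 had -0.38, -0.37 and -0.28 in replicates 1, 3 and 4, against 0.10 to 0.44 at 12 hrs. Obp56e, an odorant-binding protein, had 0.69, 0.55, 0.85 and -0.37 on the 14th day, against -0.62 to -0.25 at 12 hrs. Among 3993 features measured at both times limma called 0, which is 0%, and at an unadjusted p under 0.05 there were 37 lower, which is 0.927%, and 52 higher, which is 1.30%. Every 14th day array lay above every 12 hrs array in 70 features, which is 1.75%, and below in 48, which is 1.20%.

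**Figure D2:**
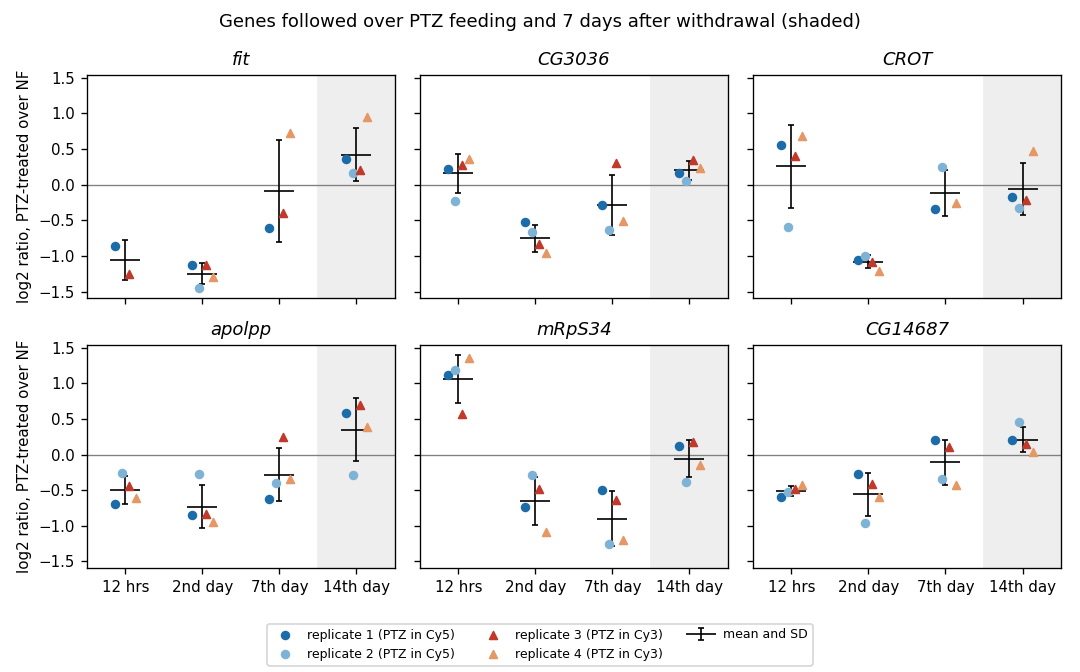
Log2 ratios of PTZ-treated over NF over the time course, with the 14th day, 7 days after withdrawal, shaded, for genes named for earlier times and for apolpp. Points are single arrays and bars give the mean and SD. fit and CG3036 lie above 0 on all 4 arrays of the 14th day and below 0 on all 4 of the 2nd day.

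Gene groups showed no called member. Lists were drawn up for pathways and cell types, and their members are described by counts and medians, beside a median of 0.00 for all tested features. Over 39 lists, 424 distinct members were measured, and 0 were called. An unadjusted p under 0.05 was reached by 7 on the low side, which is 1.65% of members against 1.64% of all features, and by 6 on the high side, which is 1.42% against 0.495%. Medians of the 35 lists with at least 5 measured members ran from -0.10 to 0.13. In 1 list the medians of all 4 arrays were below 0 and in 3 they were above 0. Medians below 0 were found in 9 of the 39 lists, and in 0 of them with the values as deposited, where all features had a median of 0.249 and the 18 lists described here ran from 0.0298 to 0.432.

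In protein synthesis, 7 of 14 measured cytosolic ribosomal proteins lay below 0 and 7 above, with a median of 0.01. By array the median was 0.12, 0.12, 0.21 and -0.30, so replicate 4 stood opposite to the others. RpL3 had 0.02, 0.13, -0.55 and -0.63 in replicates 1 to 4 (mean -0.26) and RpL32 a mean of -0.18. Of 24 translation factors, 6 lay below 0 and 18 above, with a median of 0.03, and the members that stood out were low. Besides eIF3f2, eIF6, which keeps the ribosomal subunits apart, had -0.30, -0.78, -0.73 and -0.10 (mean -0.48, SD 0.33, limma adjusted p = 1.00). Mitochondrial ribosomal proteins split 10 below and 13 above 0 (median 0.03), with mRpL19 at -0.54 and mRpL20 at -0.45 on 3 arrays each. The proteasome split 8 and 7 (median -0.05), with the ATPase subunit gene Rpt2 at 0.35 and Prosalpha4 at -0.18. Among 8 heat shock proteins and chaperones, 4 lay below 0 and 4 above (median 0.03), with Hsp26 highest and the J-domain protein gene Droj2 at 0.19. Cytosolic ribosomal proteins stood at 7 of 14 below 0 on the 14th day, against 14 of 14 and a median of -0.20 on the 7th day, with PTZ still in the food. Translation factors stood at a median of 0.04 with 5 of 23 below 0 on the 14th day, against -0.13 and 19 of 23 on the 7th day. Of the 18 lists described, 15 had a higher median on the 14th day than on the 7th day and 3 a lower one. The 3 were cytochrome P450, with 17 of 29 below 0 on the 14th day against 11 of 29 on the 7th day (medians -0.04 and 0.08), the citric acid cycle (medians 0.05 and 0.09) and neuronal excitability (medians 0.01 and 0.06). Of all 5881 features measured at both times, 48.6% lay below 0 on the 14th day and 51.9% on the 7th day. The differences between list medians were not tested.

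In energy metabolism, 2 of 8 glycolytic genes lay below 0 and 6 above, with a median of 0.07. Pfk, phosphofructokinase, had -0.37, -0.20, -0.50 and -0.37 (mean -0.36, SD 0.12, limma adjusted p = 1.00). Pgi, an enzyme one step upstream, had 0.35, 0.53 and 0.32 in replicates 2 to 4 (mean 0.40, SD 0.12). Neighbouring enzymes thus lay on opposite sides of 0 with little spread, and neither passed. The citric acid cycle had 2 of 6 below 0 (median 0.10), with Scsalpha1 of succinyl-CoA synthetase at 0.42 and the succinate dehydrogenase subunit gene SdhD at 0.09, 0.24, 0.18 and 0.18 (mean 0.17). The respiratory chain and ATP synthase had 9 of 24 below 0 and 15 above (median 0.02). ATPsynbeta had 0.28, 0.60, 0.63 and -0.30 and ATPsynG had 0.31, 0.30, 0.41 and -0.12, so both were above 0 except in replicate 4. Head fat body and carrier proteins had 5 of 8 below 0 (median -0.10), although Yp3 and fit were their members with the smallest p and both lay above 0. Respiratory genes measured at both times had a median of 0.03 with 7 of 21 below 0 on the 14th day, against -0.09 and 18 of 21 on the 7th day.

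In the nervous system and eye, 2 of 11 synaptic vesicle and active zone genes lay below 0 and 9 above, with a median of 0.12. Syngr, the vesicle protein synaptogyrin, had 0.04, 0.38, 0.49 and 0.48 (mean 0.35, SD 0.21, limma adjusted p = 1.00). Csp, a vesicle chaperone, had 0.13, -0.01, 0.56 and 0.42 (mean 0.28). Genes of GABA, acetylcholine and glutamate signalling had 2 of 10 below 0 (median 0.13), with glutamine synthetase Gs1 at 0.44, 0.20 and 0.44 in replicates 1, 3 and 4 and the transporter gene Eaat2 at 0.13, 0.30 and 0.55 there. These 2 lists had higher medians with PTZ in Cy3, at 0.16 and 0.26, than with PTZ in Cy5, at 0.05 and -0.01. The part of the dye in them was not tested. Excitability genes and ion channels were even, with 6 of 14 below 0 and a median of 0.03, and the potassium leak channel gene Ork1 had -0.44, 0.44 and -0.82 in replicates 1 to 3. The cotransporter gene Ncc69 had a mean of -0.21 on 3 arrays. Among biogenic amine and neuropeptide genes, 7 of 18 lay below 0 (median 0.07). tan (t), which frees dopamine and histamine from their conjugates with beta-alanine, had 0.52, 0.21, 0.72 and 0.10 (mean 0.39, SD 0.28, limma adjusted p = 1.00). The neuropeptide gene amn had -0.01, -1.31 and -0.25 in replicates 1, 3 and 4. Phototransduction had 4 of 10 below 0 (median 0.12). inaC, the eye protein kinase C, had 0.45, 0.47 and 0.56 in replicates 1 to 3 and -0.19 in replicate 4, and santa-maria, a scavenger receptor of the carotenoid pathway, had a mean of -0.33.

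Among the remaining groups, 18 of 33 cytochrome P450 genes lay below 0 and 15 above (median -0.04). Cyp6a13 had -0.80, -0.30 and -0.71 in replicates 1 to 3 (mean -0.60, limma adjusted p = 1.00), and Cyp4d21 had 0.29, 0.64, -0.43 and 2.52, a spread wider than its mean of 0.75. Antimicrobial and immune recognition genes had 4 of 6 below 0 (median -0.09), with PPO2 lowest and the receptor gene Tl at 0.20. Of 11 muscle genes 5 lay below 0 (median 0.02), with the flight muscle actin gene Act88F at 0.33, 0.43, 0.17 and 0.01 and Mlc2 at a mean of 0.19. In the longer list of ovary and germline genes, which holds members beyond the defining markers, 3 of 5 lay below 0 (median -0.02), with dhd highest and the piRNA pathway gene aub at 0.34, -0.14, -1.01 and 0.20. The share of such tissue in the head pools was not tested.

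**Figure D3:**
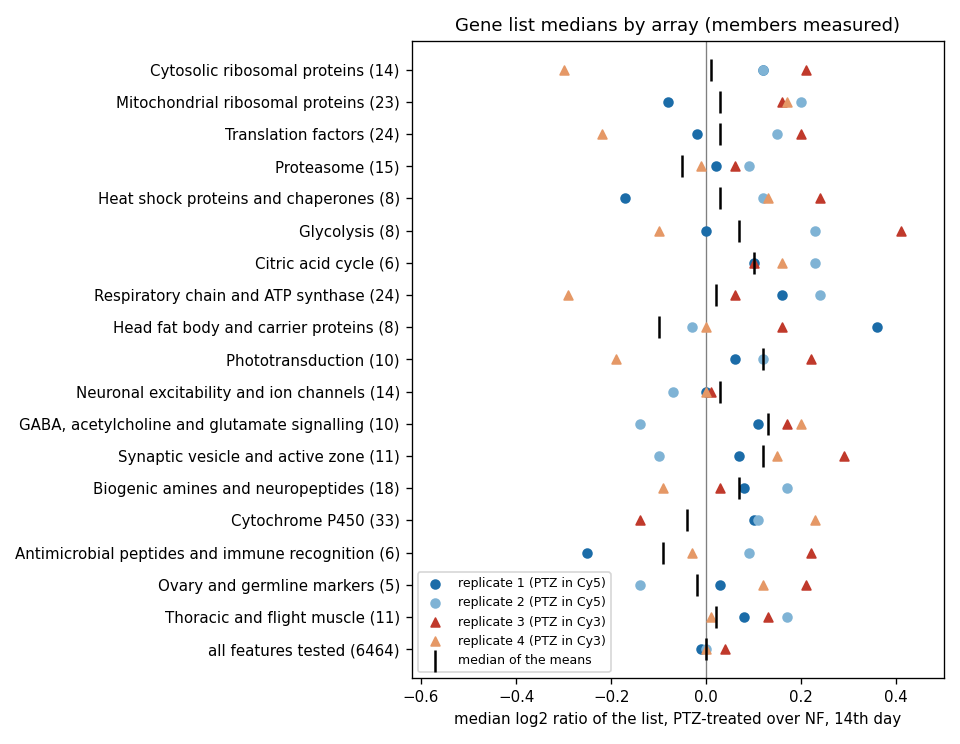
Median log2 ratio, PTZ-treated over NF, of each gene list on each 14th day array, with the number of members measured in brackets. Circles are arrays with PTZ in Cy5, triangles arrays with PTZ in Cy3, and black bars the median of the member means. Arrays of one list often lie on both sides of 0, as for cytosolic ribosomal proteins, at 0.21 in replicate 3 and -0.30 in replicate 4.

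Set against the 7th day of PTZ, the end of feeding, no gene passed either. limma called 0 of 5881 features measured at both times, which is 0%, with a smallest adjusted p of 0.656. At an unadjusted p under 0.05, 251 were lower on the 14th day, which is 4.27%, and 195 were higher, which is 3.32%. In 175 features every 14th day array lay below every 7th day array, which is 2.98%, and in 177 above, which is 3.01%. dhd had 2.50, 0.12 and 1.06 in replicates 1 to 3 on the 14th day, against -3.07, -2.62 and -0.25 in replicates 1, 3 and 4 on the 7th day, a difference of 3.21 (SE 0.78, limma adjusted p = 0.656). Uros1 had a mean of -0.81 on the 14th day and 0.45 on the 7th day, a difference of -1.25 (SE 0.32), also without overlap. dhd lay above 0 on every 14th day array and below 0 on every 7th day array that measured it. dhd and Uros1 were named for having 1 sign on every 14th day array that measured them. Their agreement in sign on that day is therefore fixed by the choice. mRpS34 was at -0.06 on the 14th day and -0.90 on the 7th day, a difference of 0.84 (SE 0.23). Act88F, picked here after its values were seen, was at 0.23 on the 14th day and -0.39 on the 7th day, a difference of 0.63 (SE 0.16). CG30154 was at -0.15 on the 14th day and 0.80 on the 7th day, a difference of -0.95 (SE 0.27). All 5 had an adjusted p = 0.656 from limma.

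Across these 5881 features the mean profile of the 14th day ran opposite to that of the 7th day, with a Spearman correlation of -0.276. The 2 sets of arrays hold separate control pools. The same correlation was 0.0427 with 12 hrs over 3993 features and 0.00749 with the 2nd day over 3808. Of the features that were lower on the 7th day at an unadjusted p under 0.05, 221 were measured on the 14th day, where 173 lay above 0 and 48 below, at a median of 0.111. Of those higher on the 7th day, 267 were measured, where 88 lay above 0 and 179 below, at a median of -0.106. Of all 5881 features, 48.6% lay below 0. The opposite profile was not shared by the arrays. Single 14th day arrays had correlations with the 7th day mean of 0.23, -0.383, -0.528 and 0.209 in replicates 1 to 4, so replicates 2 and 3 ran opposite to it and replicates 1 and 4 ran with it. Each orientation of the dyes holds 1 array of each kind. Without replicate 3 the correlation was 0.0892, and with the values as deposited it was 0.195. Over the 2774 features with values on all 4 arrays of each time it was -0.3, and over named genes only it was -0.307. The labels of 7th day replicate 4 conflict, with a treatment field that speaks of withdrawal under a 7th day title. Its title was followed, and without that array the correlation was -0.281. Each time was run on its own set of arrays, so the effects of time and of array set cannot be told apart.

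**Figure D4:**
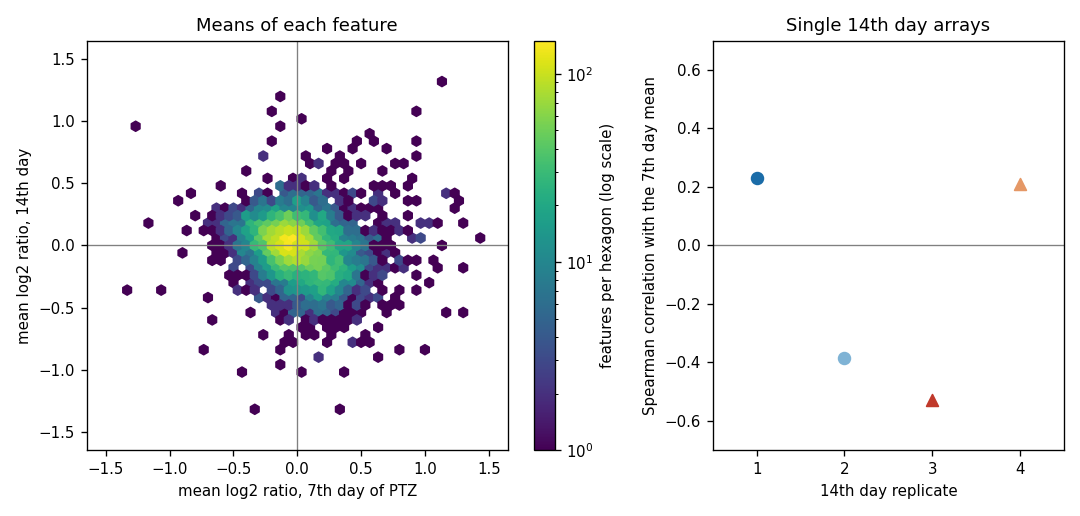
Left, mean log2 ratio (PTZ-treated over NF) of each feature on the 14th day against the 7th day of PTZ, with colour giving the number of features per hexagon on a log scale; 8 features beyond 1.5 log2 units are not drawn. Right, Spearman correlation of each 14th day array with the 7th day mean, with replicates 1 and 4 above 0 and replicates 2 and 3 below it.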

How the data were processed

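The authors scanned the slides and measured them in GenePix Pro 6.0 and Acuity 4.0, normalized the ratios, and dropped weak, saturated, uneven or flagged spots. The log2 ratios they deposited set red (Cy5) over green (Cy3). How these were centred was not stated, and the medians of the 14th day arrays before turning were 1.56, 0.915, 0.007 and 1.52. Values at or beyond 16.6, 53 in the series, were set missing. Rows of 1 gene, and neighbouring rows with no name (12430 rows had none), were averaged, arrays were centred on their median, and replicates 3 and 4 were turned to PTZ over NF by the dyes in the labels. Names came from the platform annotation, brought up to date with a gene table of assembly Release 6; 222 rows kept an older symbol. R 4.3.3 and limma 3.58.1 (lmFit, eBayes, Benjamini-Hochberg over all features tested) tested means on at least 3 of 4 arrays against 0, and differences between times over 8 arrays with at least 3 of each. Features with an adjusted p under 0.19 were called, after the highest FDR that the study applied to female arrays. The functions were tested on simulated data. The number of arrays limits the precision, and p-values measure the spread between these arrays.

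Genes were named as the 10 with the smallest p on each side and 1 sign on every array, the calls of each difference, up to 4 members with the smallest p per list described (2 are given), and genes of earlier results. Other genes in the comparison with the 7th day or 12 hrs were chosen after their values were seen, as was Yp2. Members and lists were chosen with earlier results of these data known. Alternatives tried were other thresholds, centring, SAM, a dye term, eBayes settings, single rows, ceiling values, fewer or more arrays required, shared fits, the replicate block and each replicate left out; 4 alternatives of the profile correlation were added after seeing the data.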

Additional observations from a re-analysis of the deposited data

Results flagged for a closer look

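The gene fit lay 1.67 higher on the 14th day than on the 2nd day of PTZ on the log2 scale (SE 0.19, limma adjusted p = 0.0478). This was a test of the difference between the times itself, at the main settings. fit was above 0 on 4 of 4 arrays of the 14th day and below 0 on 4 of 4 of the 2nd day. CG3036 differed the same way by 0.945 (SE 0.14, limma adjusted p = 0.182), above 0 on 4 of 4 arrays of the 14th day and below 0 on 4 of 4 of the 2nd day. Neither passed limma as deposited or with a replicate block (with the block, adjusted p = 0.388 for fit and 0.725 for CG3036). Each call was also lost when certain single arrays were left out. Both genes were chosen as low on the 2nd day in earlier results of these data, so the gap is partly fixed by the choice.

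In inaC, replicate 4 at -0.19 stood apart from the other 14th day arrays, at 0.45 to 0.56, with a gap of 0.855 of the whole range. Of 26 named genes with values on all 4 arrays this was the 1 set apart in this way, and chance sets apart about 1 group in 20.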

How the results depend on the processing

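The 0 calls against NF stayed at 0 under all 13 alternatives other than leaving out a replicate, SAM with 16 sign changes included, and ranged from 0 to 29 with each replicate left out. The 138 features at an unadjusted p under 0.05 became 4 as deposited, 225 with a dye term, 51 with values required on all 4 arrays, 325 with single rows, 1 with trend and robust eBayes and 275 in a shared fit of 16 arrays, and ranged from 106 to 335 with each replicate left out. The dye term itself was called in 30 of 6464 features and had an unadjusted limma p under 0.05 in 454. In the same fit, PTZ over NF was called in 0 features and had such a p in 225. The differences from the 7th day and from 12 hrs, with 0 calls, each had 1 call as deposited, and that with 12 hrs had 0 to 1 with each replicate left out. The number of calls against the 2nd day, 2, became 1 at an adjusted p under 0.05 (fit), 1 with a dye term (fit) and 1 as deposited (neither fit nor CG3036), and ranged from 0 to 3 with each replicate left out. For fit the difference was 1.92 as deposited (limma adjusted p = 1.00; range over alternatives 0.0204 to 1.00) and 1.49 to 1.76 with each replicate left out. For CG3036 it was 1.19 as deposited (limma adjusted p = 1.00; range 0.143 to 1.00), 0.945 with a dye term (adjusted p = 0.345) and 0.874 to 1.02 with each replicate left out. The cause was not tested.

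Deviations of same-numbered arrays of the 14th day and the other times had correlations of -0.199 to 0.347. The highest were 0.347 and 0.289, in replicates 1 and 2 against the 7th day. Differently numbered arrays ran from -0.432 to 0.451, so replicate numbers were not taken as pairs. With the replicate block, the shared fit gave 328 features at an unadjusted p under 0.05, the 2nd day comparison 0 calls, fit 1.67 (limma adjusted p = 0.388) and CG3036 0.945 (adjusted p = 0.725).

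Lists with a median below 0 numbered 9, against 0 as deposited and 16 with PTZ in Cy3, and 10 to 14 with each replicate left out. The 14th and 7th day profile correlation of -0.276 was 0.195 as deposited and ranged from -0.424 to 0.0892 with each array left out. It was -0.3 with values on all 4 arrays of each time and -0.307 over named genes only. Over single genes, 290 settings moved the mean, and 264 of these kept its sign. Karl, Uros1 and dhd passed limma without replicate 4, although they had no value there and their means stayed the same. As deposited, means turned to above 0 for Uros1 (0.0153), Dbp45A (0.072), CG12301 (0.0423), Trs31 (0.11), PPO2 (0.104), IntS9 (0.131), Vps4 (0.187), yin (0.0713), CROT (0.18), CG8654 (0.682), mRpS34 (0.182), CG30154 (0.175), RpL32 (0.0583), mRpL19 (0.286), mRpL20 (0.375), Prosalpha4 (0.648), santa-maria (0.498), Ork1 (0.55), Ncc69 (0.614), Cyp6a13 (0.219) and aub (0.0856). Leaving out the centring moved each mean by an amount fixed by the medians of the arrays that measured the gene. As deposited, all features with 4 values had a median of 0.261, and those without replicate 4 had 0.672. With each replicate left out, means on both sides of 0 were found in CROT (-0.236 to 0.0292), CG5707 (-0.244 to 0.25), CG8654 (-0.287 to 0.129), mRpS34 (-0.136 to 0.0553) and aub (-0.317 to 0.135). Precision is limited by 4 arrays and by spots without a value.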
